A study of Homo sapiens with 6 samples.

Results

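The genes described here are 6 cadherins (CDH1, CDH2, CDH3, CDH4, CDH5 and CDH13) and 3 catenins (CTNNA1, CTNNB1 and CTNND1). They were chosen by name, in a list drawn up with results of these libraries in view because CDH5 had the strongest change among them, and all 9 were found among the 14168 genes with a listed value. The cells were HaCaT, an immortalised line of human keratinocytes, and received either an siRNA against Agrin (siAgrin, 3 libraries) or a control siRNA (siControl, 3 libraries). Agrin is a heparan sulfate proteoglycan of the extracellular matrix, and the comparison asked which transcripts change when keratinocytes on a stiff culture surface are depleted of it. Which of the study's Agrin siRNAs was used for sequencing, and when the cells were harvested, are not given in the sources used here. All results come from this single cell line, and the study's methods speak in general of biological replicates for in vitro work. The labels do not tie the libraries of a group to separate cultures, so the spread between them may be in part technical.

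Cadherins are calcium-dependent adhesion proteins whose extracellular domains bind partners on neighbouring cells. The tail of a classical cadherin binds p120-catenin (CTNND1), which keeps the cadherin at the surface, and beta-catenin (CTNNB1), which in turn binds alpha-catenin (CTNNA1), the link to actin filaments. Keratinocytes are known for E-cadherin (CDH1) and P-cadherin (CDH3), whereas VE-cadherin (CDH5) is known from the junctions of blood vessel endothelium. N-cadherin (CDH2) is known from neural and mesenchymal cells and R-cadherin (CDH4) from the retina and other neural tissue. T-cadherin (CDH13) is held in the membrane by a lipid anchor and has no catenin-binding tail, so it is a cadherin but not a classical one.

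The libraries held 40958553 to 43312708 reads in the listed genes, and values are CPM, the reads of a gene scaled to the size of its library. AGRN measured 403, 412 and 387 CPM in the siAgrin libraries, against 797, 833 and 833.5 CPM in the siControl libraries, and its siAgrin mean was 48.8% of the siControl mean. Of 13050 genes tested, which reached 0.5 CPM in at least 3 libraries, 18.2% were called at an adjusted p below 0.01 (limma on log2(CPM + 0.5), Benjamini-Hochberg over all tested genes), with 9.14% of tested genes called higher and 9.07% called lower in siAgrin. The siAgrin libraries differed among themselves, and siAgrin 2 was the one nearest the siControl mean in 48.2% of tested genes and in 61.9% of called genes. All 9 markers in a fibroblast list had listed values, and their sum was also highest in siAgrin 2, at 47.7 CPM against 9.47 and 22.3 CPM in siAgrin 1 and 3 and 12.2 to 19.7 CPM in siControl.

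CDH5, the gene of VE-cadherin, lay at 16:66366690-66404784 (GRCh38, plus strand) and had the lowest log2 fold change of all tested genes on the log2(CPM + 0.5) scale. It measured 1.62, 2.25 and 1.43 CPM in siAgrin 1, 2 and 3, against 20.1, 26.4 and 24.2 CPM in siControl 1, 2 and 3. These values stand for 73, 103 and 66 reads in siAgrin and 935, 1218 and 1128 reads in siControl, so the transcript remained detectable after Agrin knockdown. The groups did not overlap, and each siAgrin library held between 6.08% and 9.55% of the siControl mean. In bulk RNA, fewer cells that express a gene and less RNA per cell cannot be told apart. The means were 1.77 ± 0.428 CPM in siAgrin and 23.6 ± 3.20 CPM in siControl (SD, n = 3 each), a log2 fold change of -3.42 (standard error 0.15, siAgrin over siControl) on the log2(CPM + 0.5) scale. CDH5 is the gene that the list was made around, so its difference is given as a description and was not tested as a finding. The added 0.5 CPM shrinks the fold change of a gene this low, which was -2.76 with 2 CPM added and -3.74 in an edgeR fit to the recovered reads. In that fit MMP10 was lower, at -3.77, as it was by mean CPM, with 7.30% of its siControl mean left against 7.49% for CDH5.

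**Figure D1:**
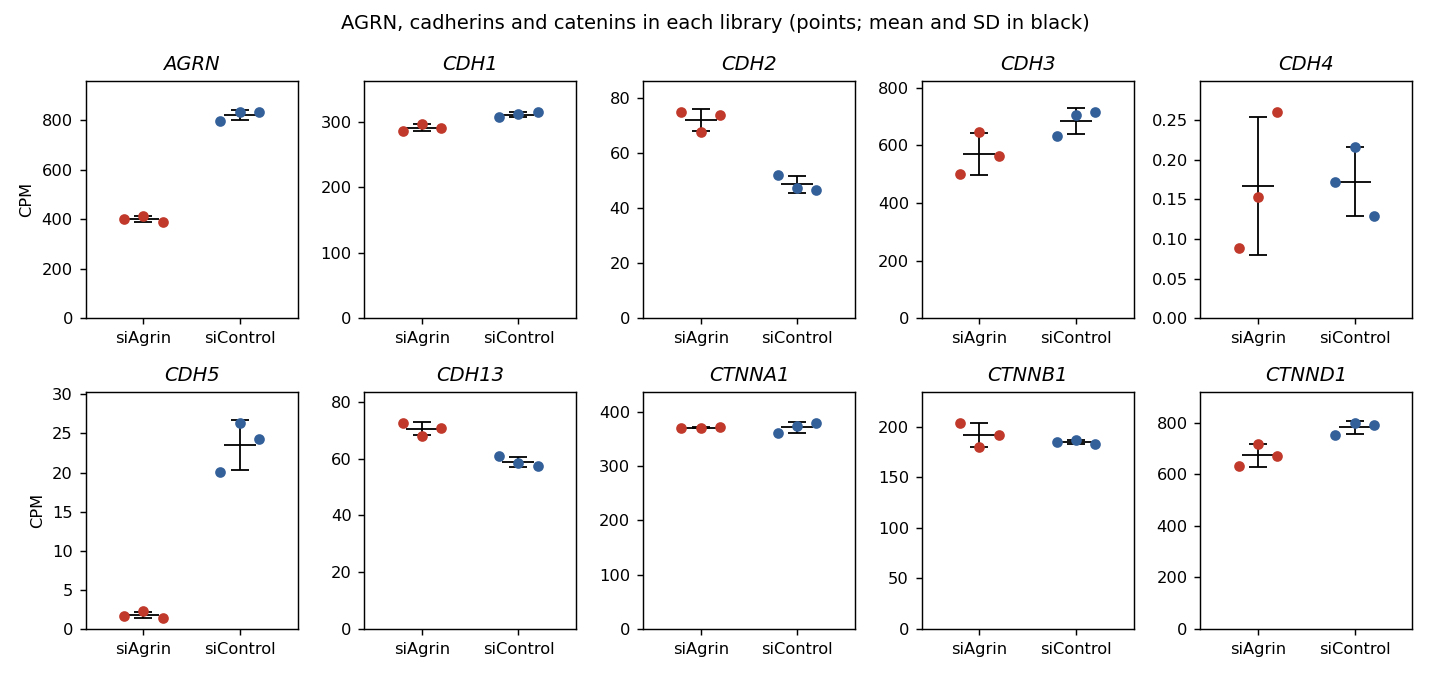
CPM of AGRN and of the 9 cadherin and catenin genes in each library, on linear axes that start at 0 with a scale of their own per gene. Points are the 3 libraries of each group, and black bars are the mean and SD. CDH5 lies between 1.43 and 2.25 CPM in siAgrin and between 20.1 and 26.4 CPM in siControl, while the other members differ far less.

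Both cadherins of keratinocyte junctions were somewhat lower in siAgrin by their means, and only CDH1 separated the groups. CDH1 (16:68737292-68835537, GRCh38), which encodes E-cadherin, measured 286, 296 and 290.2 CPM in siAgrin and 306, 311 and 315 CPM in siControl. All 3 siAgrin values lay below all 3 siControl values, with a log2 fold change of -0.10 (standard error 0.039) that did not reach the threshold for a call. CDH3 (16:68636189-68727468), which encodes P-cadherin, measured 501, 646 and 562 CPM in siAgrin and 632, 705.5 and 716 CPM in siControl. Here siAgrin 2 lay above siControl 1, so the groups overlapped, and the log2 fold change was -0.27 (standard error 0.095). Leaving out siAgrin 2 moved the CDH3 value to -0.37, past the threshold. With any other library left out it did not pass, at values of -0.33 to -0.18. CDH3 and CDH1 are close neighbours on chromosome 16, with 9.82 kb between the end of CDH3 and the start of CDH1.

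N-cadherin and T-cadherin went the other way, and for both all 3 siAgrin values lay above all 3 siControl values. CDH2 (18:27932879-28177946, minus strand) measured 75.1, 67.7 and 74.0 CPM in siAgrin, against 52.3, 47.3 and 46.7 CPM in siControl. Its log2 fold change was 0.56 (standard error 0.061), and the lowest of the siAgrin values was that of siAgrin 2. CDH13 (16:82626965-83800640) measured 72.7, 68.1 and 70.7 CPM in siAgrin, against 60.8, 58.5 and 57.4 CPM in siControl, a log2 fold change of 0.26 (standard error 0.044). Its call was lost when siAgrin 3, siControl 2 or siControl 3 was left out, at values of 0.25, 0.25 and 0.24. Fibroblasts are known to express N-cadherin, and the part of the fibroblast markers in the CDH2 values was not tested. CDH4 (20:61252261-61940617), the gene of R-cadherin, was at the limit of detection with 4, 7 and 12 reads in siAgrin and 8, 10 and 6 reads in siControl, and it was too low to be tested.

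Start-site sequences (250 bases before to 50 after the annotated start, RefSeq, GRCh38.p14) were at hand for 4 of the 9 genes, namely CDH2, CDH4, CTNNA1 and CTNNB1. CDH2 has 2 annotated starts in that table, and the upstream one is shown. It is shown because CDH2 was the member furthest above its siControl level, and the CTNNB1 window as that of a member whose groups overlapped. Capitals mark GC boxes, the letters GGGCGG or, on the other strand, CCGCCC, to which SP-family factors are known to bind. The 2 windows lie at chr18:28177081-28177380 (minus strand) and chr3:41199255-41199554 (plus strand) and are written 5′ to 3′ along the gene.
CDH2: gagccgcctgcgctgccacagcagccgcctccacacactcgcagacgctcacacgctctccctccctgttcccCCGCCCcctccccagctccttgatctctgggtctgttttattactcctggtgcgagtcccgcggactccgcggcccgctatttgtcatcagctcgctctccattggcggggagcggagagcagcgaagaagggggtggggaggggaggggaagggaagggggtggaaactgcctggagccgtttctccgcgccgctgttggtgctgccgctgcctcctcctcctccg
CTNNB1: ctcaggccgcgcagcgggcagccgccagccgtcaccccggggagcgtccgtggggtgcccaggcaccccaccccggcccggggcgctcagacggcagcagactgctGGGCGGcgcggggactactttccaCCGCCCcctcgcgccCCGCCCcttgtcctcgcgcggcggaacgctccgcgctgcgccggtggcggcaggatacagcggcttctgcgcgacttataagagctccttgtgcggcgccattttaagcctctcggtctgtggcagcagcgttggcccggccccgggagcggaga
The CDH2 window shown holds 1 GC box, its other window 0, and the CTNNB1 window 3, and 45.0% of 35116 such windows hold at least 1. Neither the CDH2 windows nor the CTNNB1 window holds CAGGTG or, on the other strand, CACCTG. These E-box letters are known to be bound by SNAI and ZEB repressors in the CDH1 promoter, and 20.6% of the windows hold them. Of the windows at hand for CDH4 and CTNNA1, 1 of CDH4 (chr20:61499171-61499470) holds 1 match, at position 235, and the others hold 0. These matches describe the letters only.

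The catenin transcripts differed little between the groups. CTNNA1 (5:138610967-138935034) measured 369.9, 369 and 371 CPM in siAgrin and 359.9, 374 and 379.7 CPM in siControl. The siAgrin values fell inside the siControl range, and the log2 fold change of -0.0040 had a 95% interval of -0.10 to 0.09. CTNNB1 (3:41194741-41260096) measured 204, 180 and 192 CPM in siAgrin and 185, 187 and 183 CPM in siControl, with a wider spread in siAgrin and a log2 fold change of 0.05 (95% interval -0.07 to 0.17). CTNND1 (11:57753243-57819546) was the catenin with separated groups, at 631, 719 and 669.7 CPM in siAgrin against 753, 800.0 and 792 CPM in siControl. Its log2 fold change of -0.22 (standard error 0.061) missed the threshold, and passed it at -0.27 without siAgrin 2 and at -0.22 in DESeq2. With any other library left out it did not pass, at values of -0.24 to -0.17. Exons of CTNND1 are shared with the readthrough gene TMX2-CTNND1. How reads from those exons were assigned or left out is not stated, so the level of CTNND1 is uncertain to that extent. CTNNA1, CTNNB1 and CDH13 also overlap other annotated genes, and the strand setting of the counting is not given in the sources used here.

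Of the 9 members 8 were tested. The calls were CDH2 and CDH13 as higher and CDH5 as lower, against 18.2% of all tested genes called in either direction, 9.14% higher and 9.07% lower. CDH5 was also the only member with more than a 2-fold change, the second criterion in the study's methods. The groups did not overlap in 5 of the 8, which is no more than a description beside the 50.0% of all tested genes without overlap. The median log2 fold change of the 8 was -0.05, against -0.0019 over all tested genes. As the members were picked with results known, these counts show how the genes are distributed and nothing about the list.

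**Figure D2:**
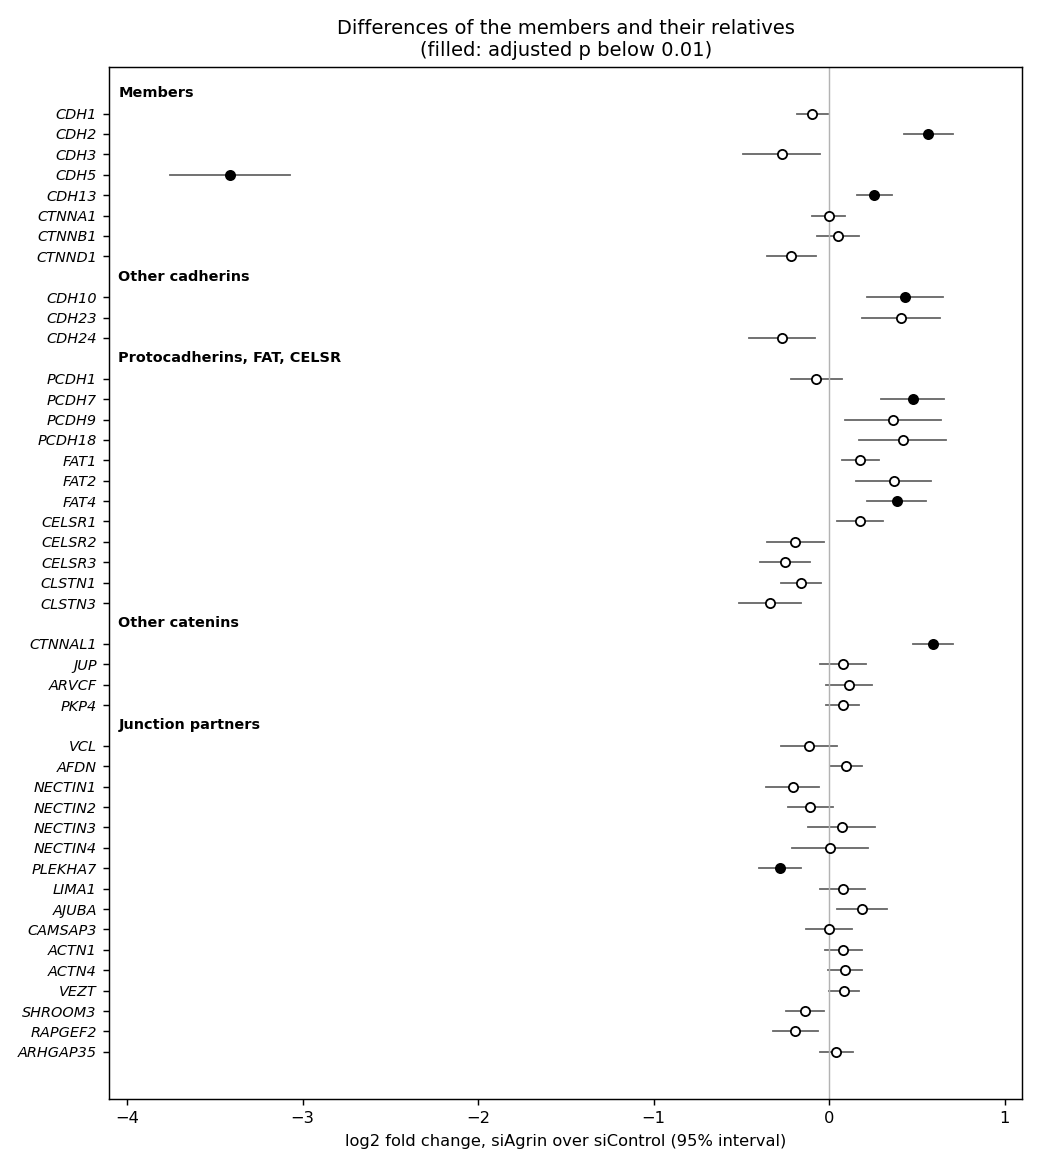
Log2 fold change of siAgrin over siControl (x axis, points with 95% intervals from limma) for the 8 tested members and the tested genes of 4 related lists, in rows by group. Filled points had an adjusted p below 0.01. CDH5 lies at -3.42, and every other gene shown lies between -0.34 and 0.59.

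Levels can be compared between genes only per length, so CPM were divided by exon length and scaled to the same total per library (a TPM-like level, union of exons). CDH3 stood highest, at 362, 449.5 and 400.0 in siAgrin and 445, 483 and 488.5 in siControl. The next positions in siControl were CTNND1 at 223 to 230.0 and CDH1 at 224 to 227, whose ranges overlapped. In siAgrin CDH1, at 216.7 to 217.5, stood above CTNND1, at 191.7 to 210.1. CTNNA1 followed at 183.5 to 187 in siControl and CTNNB1 at 67.9 to 71.0. CDH2 at 23.7 to 27.4 and CDH13 at 22.7 to 24.8 overlapped in siControl but not in siAgrin, where they measured 35.1 to 40.4 and 27.5 to 30.5. In siControl CDH5 came next at 15.0 to 19.2, whereas in siAgrin it measured 1.08 to 1.66. CDH4 was lowest in both groups, at 0.16 or less. With the longest transcript as the length, CTNNA1 stood above CDH1 in siControl, where the other positions were the same. In siAgrin CTNNA1, at 301 to 313, then stood above CTNND1, at 271 to 298, and CTNND1 above CDH1, at 192 to 193, so the order of these 3 genes depends on the length used.

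**Figure D3:**
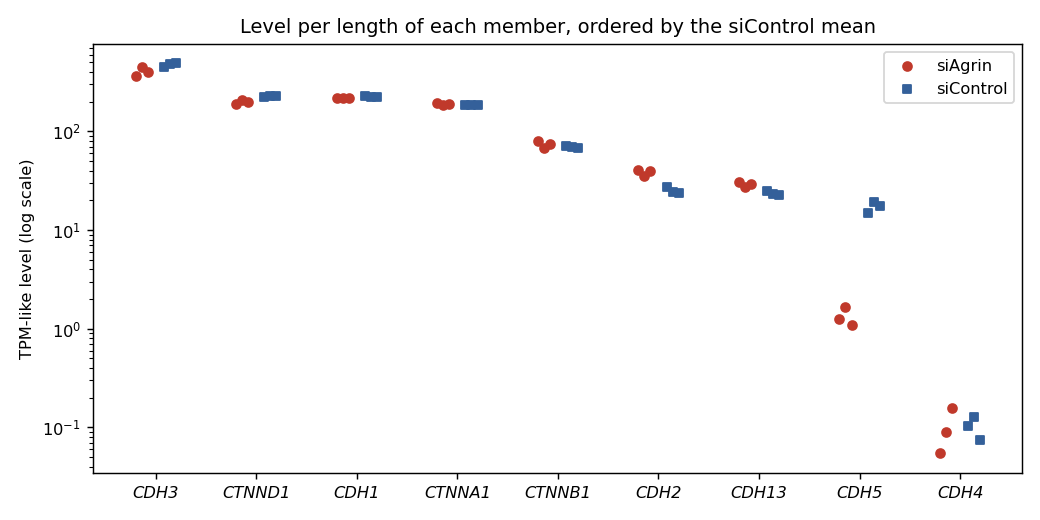
Level per exon length (TPM-like, log axis) of each member in the 3 siAgrin and the 3 siControl libraries, with genes ordered by the siControl mean. CDH5 is next to CDH13 in siControl, at 15.0 to 19.2, and far below it in siAgrin, at 1.08 to 1.66.

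The make-up of the cadherin transcript pool followed these levels. CDH3 took 55.6%, 61.5% and 58.2% of the summed level of the 6 cadherins in siAgrin and 60.2%, 62.4% and 62.8% in siControl, ranges that overlapped. CDH1 took 29.7% to 33.4% in siAgrin and 28.96% to 30.7% in siControl, again with overlap. The share of CDH5 was 0.190%, 0.228% and 0.158% in siAgrin and 2.03%, 2.48% and 2.26% in siControl. Those of CDH2 and CDH13 were larger in siAgrin, at 4.80% to 6.20% and 3.76% to 4.68%, than in siControl, at 3.04% to 3.71% and 2.92% to 3.36%. The ratio of CDH2 to CDH1 is often used as a readout of a shift from epithelial to mesenchymal cadherins. Such a shift was not tested here. The ratio was 0.186, 0.162 and 0.181 in siAgrin and 0.121, 0.108 and 0.105 in siControl. With the longest transcript as the length it was 0.274 to 0.314 in siAgrin and 0.178 to 0.204 in siControl, so its size depends on the length used while the groups stayed apart. The E- and P-cadherin transcripts thus made up most of the pool in all 6 libraries.

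Among the siAgrin libraries, siAgrin 2 lay nearest the siControl mean in 7 of the 8 tested members. This stands beside 48.2% of all tested genes and 61.9% of called genes, so it is described here for the members only. The exception was CTNNA1, for which siAgrin 3 was nearest. As percentages of the siControl mean, CDH3 stood at 73.2%, 94.4% and 82.1% in siAgrin 1, 2 and 3 and CTNND1 at 80.7%, 92.0% and 85.7%. CDH2 ran in the same order from the other side, at 153.9%, 138.9% and 151.8%. siAgrin 2 held the largest amount of AGRN among the siAgrin libraries, by a narrow margin, and the part that this or its fibroblast marker level had in the order was not tested.

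**Figure D4:**
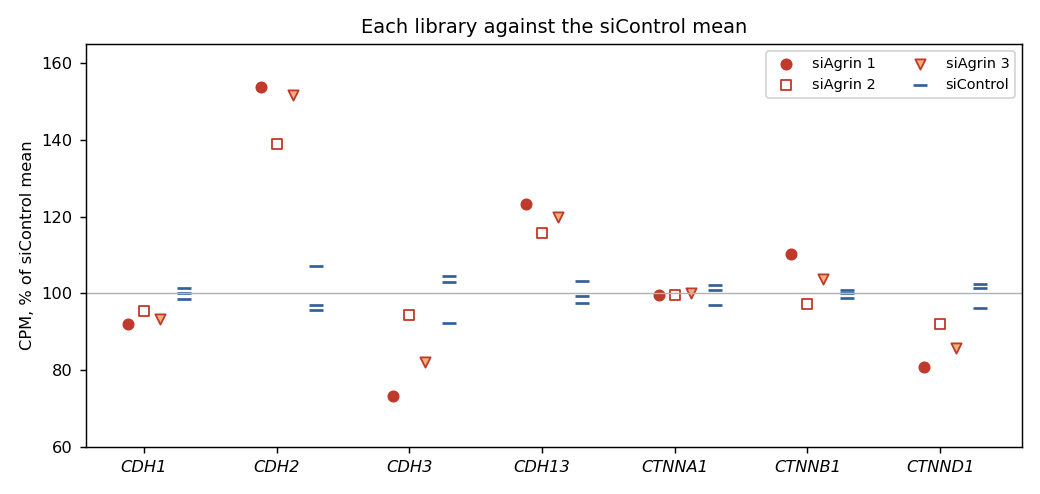
Each library as a percentage of the siControl mean (y axis, from 60%) for the tested members other than CDH5. Symbols in red mark siAgrin 1, 2 and 3, and blue bars mark the 3 siControl libraries. siAgrin 2 lies nearest 100% in all members shown but CTNNA1.

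CDH5, CDH3, CDH1 and CDH13 all lie on chromosome 16, but the neighbours of CDH5 compared here differed far less than it did. Neighbours were taken among tested genes with 1 annotated position, which 12836 of the 14168 listed genes had, so nearer genes may be missing. Of the 5 nearest such genes on each side, none was called by limma, edgeR or DESeq2, and 2 had an unadjusted p below 0.05. These were TK2 (-0.26, adjusted p = 0.039) and CMTM3 (-0.30, adjusted p = 0.038), the latter of the chemokine-like MARVEL domain family. TK2 encodes a mitochondrial thymidine kinase, and its gene lies on the minus strand with its near edge 103 kb beyond CDH5. The 10 neighbours had log2 fold changes of -0.30 to 0.12, and 3 of them had groups without overlap, against 50.0% of tested genes. On the other side the nearest such gene was the ribosomal pseudogene RPS27AP16, whose reads may belong to its parent gene, 5.31 Mb before CDH5. CKLF overlaps its readthrough gene CKLF-CMTM1, so their values are not separate.

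**Figure D5:**
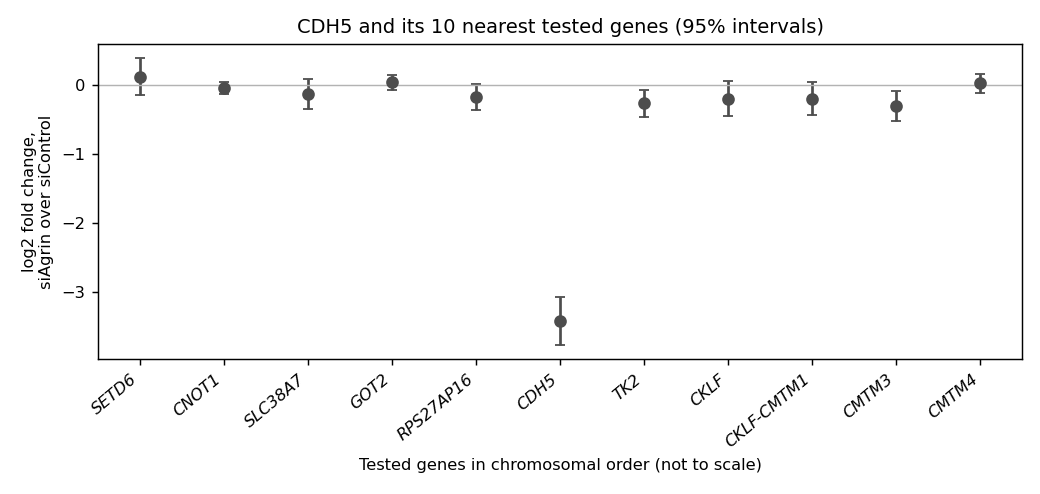
Log2 fold change of siAgrin over siControl with 95% intervals for CDH5 and its neighbours, in chromosomal order and not to scale. The neighbours are the 5 nearest tested genes with 1 annotated position on either side. The 10 neighbours lie between -0.30 and 0.12, and CDH5 lies at -3.42.

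The genes whose values across the 6 libraries were most like those of CDH5 were 3 matrix metalloproteinase genes, IDO1 and MUC4. Likeness was the Euclidean distance between log2(CPM + 0.5) values, each gene taken relative to its siControl mean, among tested genes with a siControl mean of at least 1 CPM. MMP10 (stromelysin 2) was nearest at a distance of 0.38, with 0.885, 1.18 and 0.890 CPM in siAgrin and 10.9, 15.3 and 14.3 CPM in siControl. In CDH5, MMP10 and the others named here, siControl 1 was lowest within siControl and siAgrin 2 highest within siAgrin. The genes were picked for likeness over these same libraries, so the shared order is no separate result. Among all called genes, siAgrin 2 lay nearest the siControl mean in 61.9%. MMP12 (macrophage metalloelastase) followed at 0.51, with 9.17 ± 1.05 CPM in siAgrin and 86.5 ± 6.43 CPM in siControl. IDO1, which breaks down tryptophan, was at 0.90, MUC4, a membrane mucin, at 1.39 and MMP7 (matrilysin) at 1.66, with log2 fold changes of -2.93, -2.68 and -2.51. The distance includes the size of the difference between the 2 groups, and it says nothing on shared control.

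Among relatives of the members, 9 lists of genes held 137 distinct names, of which 81 were tested. In these, 8 genes rose and 4 fell, or 14.8%, against the 18.2% of all tested genes. The counts called in each list below stand beside that share, with 9.14% of all tested genes called higher and 9.07% called lower. The median log2 fold change of the 81 was 0.02, and on the log2(CPM + 0.5) scale none of the 12 reached 2-fold, though HEY1 was at 206% of its siControl mean in CPM. In the paragraphs that follow, rose and fell are used of genes with an adjusted p below 0.01 in limma, and other named genes missed it.

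Of 22 other cadherins named, 5 had a listed value and 3 were tested. CDH10, a type II cadherin known from brain, measured 2.94, 2.75 and 2.60 CPM in siAgrin and 2.10, 1.84 and 1.83 CPM in siControl, and rose by 0.43 on the log2 scale (adjusted p = 0.0098). That call was lost with any 1 library left out, with 0.1 CPM added before the logarithm, and in edgeR (adjusted p = 0.011) and DESeq2 (adjusted p = 0.013). CDH23, of the tip links of hair cells, was at 0.41 (adjusted p = 0.014) and was called in DESeq2, and CDH24 was at -0.27 (adjusted p = 0.035). CDH11, a cadherin of fibroblasts and osteoblasts, was near 0 with 0.022, 0.306 and 0.11 CPM in siAgrin and at most 0.022 CPM in siControl. It was highest in siAgrin 2, as was the sum of the fibroblast markers, though LUM among them was highest in siControl 2.

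Of 12 protocadherins and FAT and CELSR cadherins tested, PCDH7 and FAT4 rose and none fell. PCDH7 (NF-protocadherin) measured 80.4, 64.8 and 68.4 CPM in siAgrin, against 52.8, 49.5 and 50.4 CPM in siControl, a log2 fold change of 0.48 (adjusted p = 0.0031). FAT4, a giant cadherin known from planar polarity, had a log2 fold change of 0.38 (adjusted p = 0.0056). Neither rise passed without siAgrin 3, siControl 2 or siControl 3, and without siAgrin 2 the calls numbered 5, with PCDH9, PCDH18 and CLSTN3 in addition. DESeq2 called 6, adding FAT1, FAT2, CELSR3 and CLSTN3.

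Of 4 relatives of the catenins tested, CTNNAL1 was the only 1 called. CTNNAL1, known as alpha-catulin and similar in sequence to alpha-catenin, measured 172, 157 and 175 CPM in siAgrin and 112, 109 and 113 CPM in siControl. It rose by 0.59 (standard error 0.05, adjusted p = 0.00027) and passed with each library left out, while its relative CTNNA1 lay inside the siControl range. Plakoglobin (JUP), which can take the place of beta-catenin at junctions and also sits in desmosomes, measured 926 ± 34.8 CPM in siAgrin and 877 ± 40.9 CPM in siControl, with overlap.

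The 16 junction partners tested, which join cadherin complexes to the cytoskeleton, had log2 fold changes of -0.28 to 0.19. Of these 1 was called, beside 18.2% of all tested genes, and 8 had groups without overlap, beside 50.0%. The called gene was PLEKHA7, which binds p120-catenin at the apical junction. PLEKHA7 fell, at 58.6 ± 2.84 CPM in siAgrin and 71.4 ± 3.01 CPM in siControl (-0.28, adjusted p = 0.0051). It did not pass without siAgrin 3 or any 1 siControl library, and AJUBA was called beside it without siAgrin 2. Vinculin (VCL) was at -0.12 (adjusted p = 0.21) and afadin (AFDN) at 0.09 (adjusted p = 0.093).

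Genes of cadherin turnover and phosphorylation moved in both directions, with 2 higher and 2 lower among 16 tested. The tyrosine phosphatases PTPN1 (0.27, adjusted p = 0.0020) and PTPRM (0.40, adjusted p = 0.0045) rose. PTPRU, also a receptor phosphatase, fell (-0.27, adjusted p = 0.0086). ADAM10, the sheddase known to cut E- and VE-cadherin, was lower in each siAgrin library, at 245 to 249.5 CPM against 275 to 309 CPM in siControl. It missed the threshold in limma (-0.22, adjusted p = 0.013), and was called in DESeq2 (adjusted p = 0.0012) and in limma with replicate number as a block. None of the 4 main limma calls passed without siAgrin 3, siControl 2 or siControl 3, and without siAgrin 1 only those of PTPN1 and PTPRM did.

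Among repressors of the CDH1 promoter 1 of 6 tested genes rose and none fell. SNAI2 (Slug), the most abundant of the SNAI and ZEB genes here, measured 41.4, 45.6 and 41.9 CPM in siAgrin and 38.8, 39.8 and 39.2 CPM in siControl, with a log2 fold change of 0.13 (adjusted p = 0.079). ZEB1 was at 0.72 CPM or less in every library, and SNAI1, ZEB2 and TWIST1 were too low to be tested. The gene that rose was KLF8, at 22.0 to 23.7 CPM in siAgrin and 17.3 to 19.5 CPM in siControl (0.32, adjusted p = 0.0063), and it did not pass without siAgrin 3, siControl 2 or siControl 3.

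No gene of the beta-catenin pathway was called in the 2 lists made for it. Of 13 tested genes of the destruction complex and the nuclear partners of beta-catenin, 4 had an unadjusted p below 0.05, edgeR called 0 and DESeq2 called 1. That gene was TCF7, a partner of beta-catenin on DNA, at 3.93 ± 0.612 CPM in siAgrin and 2.47 ± 0.358 CPM in siControl (0.57, adjusted p = 0.012), and it was also called without siAgrin 1. Of 4 tested targets of beta-catenin and TCF, TCF7 was again the 1 with an unadjusted p below 0.05 and the 1 that DESeq2 called, and edgeR called 0. AXIN2, the most widely used of these targets, was at 0.044 CPM or less in every library. LEF1, also in these lists, had no listed value under that name.

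Transcription factors known from endothelial genes were compared because VE-cadherin is one of those genes. ETS1, known to act on the CDH5 promoter in endothelial cells, measured 61.6, 69.5 and 63.9 CPM in siAgrin and 84.2, 81.9 and 83.5 CPM in siControl, and fell by 0.36 on the log2 scale (adjusted p = 0.0018). Its siAgrin 2 value was the highest of the siAgrin group, as for CDH5, and siAgrin 2 was nearest the siControl mean in 61.9% of called genes. A link between ETS1 and CDH5 was not tested. HEY1, a Notch target, measured 4.71, 4.71 and 4.64 CPM in siAgrin and 2.32, 2.32 and 2.19 CPM in siControl and rose by 0.90 (adjusted p = 0.00026). The other 6 tested were not called, and FLI1, also an ETS factor, was the closest at 0.42 (adjusted p = 0.025). The ETS1 call was lost without siAgrin 3, siControl 2 or siControl 3, while that of HEY1 was kept. ERG, also in this list, had no listed value under that name.

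The cell type was checked against markers, since VE-cadherin is usually taken as a marker of endothelium. Keratinocyte markers summed to 13150, 15440 and 14610 CPM in siAgrin and 11550, 11890 and 12220 CPM in siControl, with KRT5 at 4566 to 5099 CPM in siAgrin and 4249 to 4408 CPM in siControl (adjusted p = 0.16). Of the 10 markers 3 rose, beside 9.14% of all tested genes. They were KRT14 (0.60, adjusted p = 0.0016), KRT6A (0.54, adjusted p = 0.0030) and DSP (0.53, adjusted p = 0.00036). The KRT14 call was lost without siAgrin 3 or siControl 2 and the KRT6A call without siAgrin 3, siControl 2 or siControl 3, while that of DSP was kept. Of 16 endothelial markers 6 were listed, and TEK, ROBO4, CD34 and FLT1 were at 0.262 CPM or less in every library. Neither of the 2 tested ones was called lower, as MMRN2 rose (0.35, adjusted p = 0.0081) and EGFL7 was at 0.09 (adjusted p = 0.68). The MMRN2 call was lost without siAgrin 2, siAgrin 3 or any 1 siControl library. The 6 summed to 14.9, 18.7 and 16.1 CPM in siAgrin and 12.7, 13.4 and 14.1 CPM in siControl. Most of that sum was MMRN2, at 11.8 to 13.7 CPM in siAgrin and 9.62 to 9.94 CPM in siControl. Which cells held the CDH5 transcripts was not tested. PECAM1, also among the 16 markers, had no listed value under that name.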

How the data were processed

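Polyadenylated RNA of 6 HaCaT libraries was sequenced as single reads with a stranded library kit. Per the labels and the study's methods, the authors used STAR 2.6.1d for alignment to hg38, SAMtools for sorting, HTSeq for counts per gene and edgeR for analysis of the imported counts. The strand setting is not given in the sources used here. The authors deposited CPM for 14168 genes, and 100% of the deposited values were whole multiples of 1 read within 0.01 of a read, so reads were recovered. No column (0) was left out.

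A two-sided limma-trend test of log2(CPM + 0.5) compared the groups (limma 3.58.1, R 4.3.3). On the recovered reads, edgeR 4.0.16 called 2360 genes and DESeq2 1.42.0 called 3361, against 2377 from limma. Positions and exon lengths come from GENCODE 44 on GRCh38, a later release than the one the authors counted on, with 1 position for 12836 listed genes. The depth makes counting error small for all members but CDH4 and CDH5, and p-values measure only the spread between these libraries. The test scripts were tested on simulated data.

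The members, lists and tests were chosen with earlier results of these data known. The rule for named genes took the 9 members, AGRN, the called genes of each list (at most 6), and well-known genes whatever their result. It also took the 5 nearest tested genes with 1 annotated position on each side of CDH5, and the 5 nearest to CDH5 in pattern. PCDH9, PCDH18, CLSTN3, CELSR3, AJUBA, CDH11, CDH23, CDH24, FAT1, FAT2, FLI1, TCF7, TCF7L1, KRT5, KRT6A and DSP were named after their values were seen. The values of 1 called list gene are not reported here. Alternatives tried were another added value (0.1 or 2 CPM), every gene or those averaging 5 CPM or more, median-ratio or TMM scaling, the count tools, a replicate block, each library left out in turn, and the length of the longest transcript.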

Additional observations from a re-analysis of the deposited data

How the results depend on the processing

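Across 655 values for 44 named genes under the alternatives, 588 kept their direction and their side of the threshold, 53 lost and 8 gained a call, and 6 changed sign. The sign changes came with 1 library left out, in CTNNA1 (-0.026 to 0.012, above 0 without siControl 2 or 3), CMTM4 (-0.0090 to 0.081, below 0 without siAgrin 3), EGFL7 (-0.036 to 0.23, below 0 without siAgrin 2 or siControl 1) and ZEB1 (-0.27 to 0.042, above 0 without siAgrin 1), none of them called. Leaving out each library gave CDH5 values of -3.56 to -3.31, a description only since the list was made around CDH5. Leaving out 1 library at a time gave 589 to 3370 called genes, the fewest without siAgrin 3, siControl 2 or siControl 3 and the most without siAgrin 2, and 2 to 5 called members. The called genes then numbered 0 to 1 among other cadherins, 0 to 5 among protocadherins and FAT and CELSR cadherins, 0 to 2 among junction partners, 0 to 6 for turnover, 0 to 1 among CDH1 repressors, 0 to 1 each for the destruction complex and for TCF targets, and 1 to 2 among endothelial transcription factors. These alternatives have fewer samples.

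With replicate number as a block, 3966 genes, 5 members (CDH3 and CTNND1 in addition), 1 neighbour of CDH5 (CMTM3), 3 other cadherins, 9 protocadherins and FAT and CELSR cadherins, 3 junction partners, 1 gene of the destruction complex and 1 TCF target (TCF7 both times) were called. Whether the numbers mark pairs could not be decided. The deviations of same-numbered libraries correlated at 0.53, 0.38 and -0.0018. siAgrin 1 and 2 each correlated best with their own number, though siAgrin 2 reached 0.35 with siControl 3. siAgrin 3 was near 0 with every siControl library, at -0.038 to 0.03, so it could not tell. DESeq2 called 6 protocadherins and FAT and CELSR cadherins and 1 gene (TCF7) in each of the 2 beta-catenin lists. With no filter 1 gene of the destruction complex (TCF7L1) was called. No other cadherin (0) was called with 0.1 CPM added, in edgeR, or at a mean of at least 5 CPM, which removes CDH10 and also HEY1, leaving 1 endothelial transcription factor. With the longest transcript as the length, 0 neighbouring pairs in the order of levels overlapped in siControl, against 2 with the union of exons. The cause of these shifts was not tested. Depth limits CDH4, at 4 to 12 reads.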
